A study of Mus musculus with 30 samples.

Results

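Among the 56484 gene rows counted in 30 Geo-seq libraries of the E12 mouse eye, 302 were nuclear rows with a count in every library. The rows were chosen on the rounded counts themselves. A row had to hold a count above 0 in all 30 libraries and more than 10 counts in at least 3, and the mitochondrially encoded rows and 6 named rows (Mest, Peg10, Sgce, Gdf11, Sarnp and Cdh6) were left out. Of 8337 rows that passed the filter on low counts, 327 were counted in all 30 libraries; 23 of these were mitochondrial and 2 were Mest and Gdf11, which left the 302 members. All 302 passed that filter by construction, so neither their presence in every library nor their passing is a result.

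In Geo-seq, small areas are cut by laser from tissue sections and the cDNA of each area is amplified and sequenced, so that a library has a known place in the tissue. The libraries came from the presumptive retinal pigment epithelium (pRPE; 14 libraries) and the optic stalk (OS; 16 libraries) of E12 embryos of the genotype given as Control, which in the methods are littermates without Dct-Cre, and no treatment is given. Dorsal pRPE libraries were distal (3) or proximal (4) and ventral ones distal (4) or proximal (3), while the dorsal OS had distal (3), middle (2) and proximal (2) libraries and the ventral OS distal (3), middle (4) and proximal (2) ones, labelled as batch A (14) or B (16). The methods speak of sections from 4 control embryos and the labels do not tie a library to an embryo. A sample table with animal IDs that the study describes was not used here. Libraries therefore share animals. The p-values below measure the spread between captured areas and cannot be read as p-values over animals.

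Total counts per library ranged from 1421918 to 6041021, of which 724603 to 2935049 lay on nuclear rows. A library held counts on 1730 to 9886 rows. Values below are CPM, counts scaled to a common library size with TMM, whose factors ranged from 0.530 (pRPE dorsal distal replicate 1) to 1.26. The labelled tissues could be checked against their markers only in part. Of 18 pigment markers 6 had no count in any library, Dct, Tyr and Tyrp1 among them, while Gpnmb was counted in 14 of 14 pRPE and 10 of 16 OS libraries and Slc45a2 in 13 and 7. Trpm1 was counted in 13 libraries of each tissue, and Gpr143 and Rpe65 only in OS libraries (2 and 1). Of 20 stalk and eye field markers 7 had no count, and Pax2 was counted in 12 of 16 OS and 2 of 14 pRPE libraries and Zic4 in 6 and 0. Sox2 (at most 8 counts) was counted in 11 OS and 14 pRPE libraries, and Rax in 0 and 6. Among the 19851 protein-coding nuclear rows 6779 had no count, a share near those of the pigment and stalk lists. No pigment, stalk, mesenchyme, blood, endothelium, neuron or lens marker was among the members.

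In most tissues the mRNAs found in every sample are those of housekeeping genes, which make the ribosome, the cytoskeleton, the enzymes of glycolysis and respiration and the machinery of protein turnover. The pRPE and the OS arise from the same optic vesicle, the pRPE becoming the pigmented layer behind the retina and the OS guiding retinal axons and giving rise to astrocytes of the optic nerve. A small captured area holds little RNA, so that after amplification many mRNAs are counted in some libraries and at 0 in others.

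Few of the listed housekeeping genes were members, though a larger share than of all nuclear rows. Rows are called here by the symbols the count table gives, and whether each symbol names the feature whose reads were counted was not tested, which limits every value given under a gene's name. Of 191 listed rows of widely expressed and ribosomal protein genes, 8 were members (4.19%), 71 had no count in any library and 54 passed the filter on low counts. For comparison, 6779 of the 19851 protein-coding nuclear rows had no count and 6033 passed that filter, shares close to those of the listed rows. Members made up 0.987% of the protein-coding nuclear rows and 0.535% of all nuclear rows. The 8 were Cox6c and Ndufa4 (respiratory chain), Myl6 (a myosin light chain), Vim (the intermediate filament protein vimentin), Pabpc1 (the poly(A) binding protein of the cytoplasm), Rpl30 and Rps20 (ribosomal proteins) and Neat1 (a nuclear long noncoding RNA). Of 83 ribosomal protein genes, 2 were members and 26 had no count. The list of protein folding and turnover held no member among 18 rows, and 10 of these had no count. Mcm7, a subunit of the replicative helicase, was the member of the cell cycle list (18 rows), and Ep300, a histone acetyltransferase, that of the chromatin remodelling list (21 rows); the imprinted list (17 rows) held none. That list leaves out the imprinted genes Mest, which the rule removed although it was counted in all 30 libraries, and Kcnq1ot1, which is a member, so its count of 0 covers only the rows listed. The plot of the gene lists by number of libraries shows the same split for each list.

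**Figure D1:**
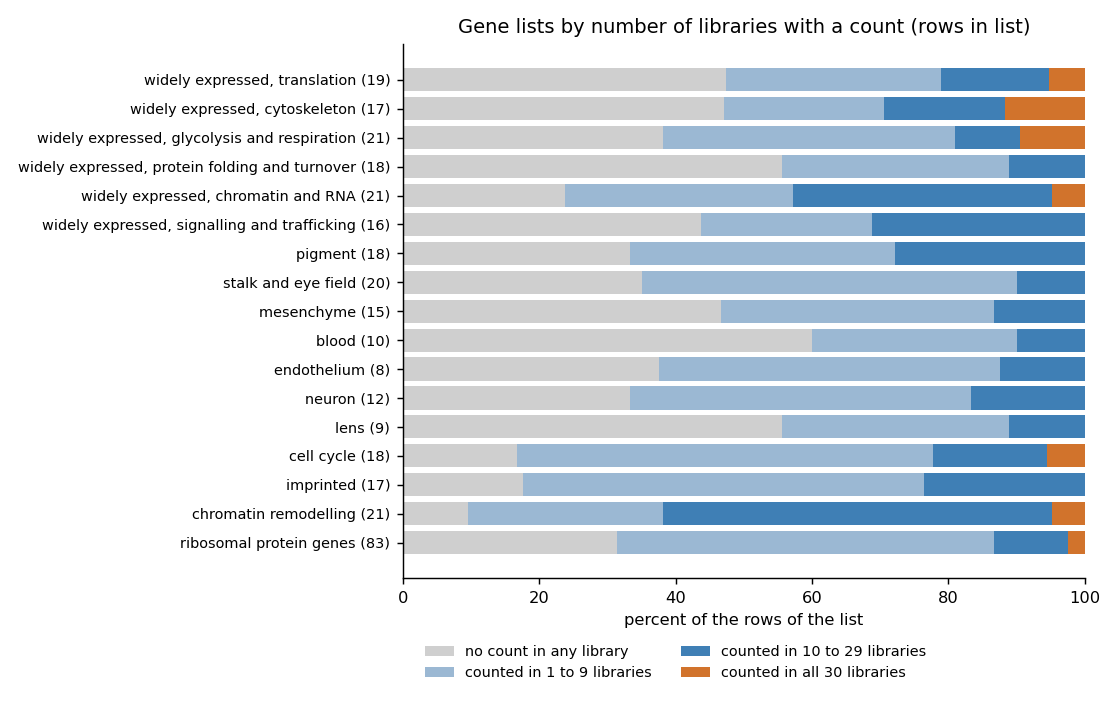
Each bar is a gene list (number of its rows in brackets), divided by the percent of its rows with no count in any library, a count in 1 to 9, in 10 to 29 or in all 30 libraries. The orange ends, rows counted in all 30, amount to 2 of 83 ribosomal protein genes and are missing, for the imprinted list with Mest and Kcnq1ot1 not on it, from the pigment, stalk, mesenchyme, blood, endothelium, neuron, lens and imprinted lists and from 2 of the 6 widely expressed lists.

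Most members lay outside these lists. The GENCODE M21 annotation holds 276 of the 302 names (91.4%), of which 196 are protein coding (71.0%), 46 are pseudogenes (16.7%) and 34 are of other types. Among all 8300 nuclear rows that passed the filter, 77.6% of the annotated names are protein coding and 6.44% are pseudogenes. Names made of Gm and a number accounted for 72 members (23.8%, against 19.7% of the nuclear rows that passed). Of the members with an annotated position, 59.1% overlap another gene and 44.2% overlap a gene on the opposite strand, close to the 59.1% and 45.7% of the nuclear rows that passed. The overlap was taken from gene start to gene end, and shared exons were not examined. Whether the counting used the strand is not given in the sources used here. In sequence shared with a partner on the other strand, the reads of a row may therefore not be told apart.

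Pseudogenes share sequence with the gene they are named after. Their counts are uncertain, and which gene the reads on their rows came from was not tested. Rpl27-ps3 held 522 to 6732 counts in a library (109230 in all), while the row of its parent Rpl27, a ribosomal protein gene, was at 0 in all 30 libraries. Psenen-ps held 13 to 6732 counts (53028 in all) and Psenen, a subunit of gamma-secretase, had none. Esd-ps, Rpl7a-ps3, Ptma-ps2 and Zbed4-ps1 likewise had parents with no count. The parents of Rps19-ps5 and Rpsa-ps11 were counted in 3 libraries each and that of Prkaca-ps1 in 6.

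The 302 rows held 28.1% to 52.7% of each library's nuclear counts (median 38.1%, n = 30). The share had a median of 36.3% in the dorsal OS (28.1% to 39.996%, n = 7), 39.5% in the ventral OS (32.4% to 43.6%, n = 9), 38.1% in the dorsal pRPE (30.4% to 52.7%, n = 7) and 38.02% in the ventral pRPE (35.9% to 45.5%, n = 7). The 4 ranges overlapped. Libraries with more detected rows put a smaller share on the members. Across the 30 libraries Pearson's r between the share and the log2 number of detected rows was -0.49 (Spearman's rho -0.53), and it was -0.31 within batch A (n = 14), -0.64 within batch B (n = 16) and -0.36 when the 2 libraries with the most extreme numbers of rows were left out. Both measures come from the same counts, so these values are descriptions only.

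**Figure D2:**
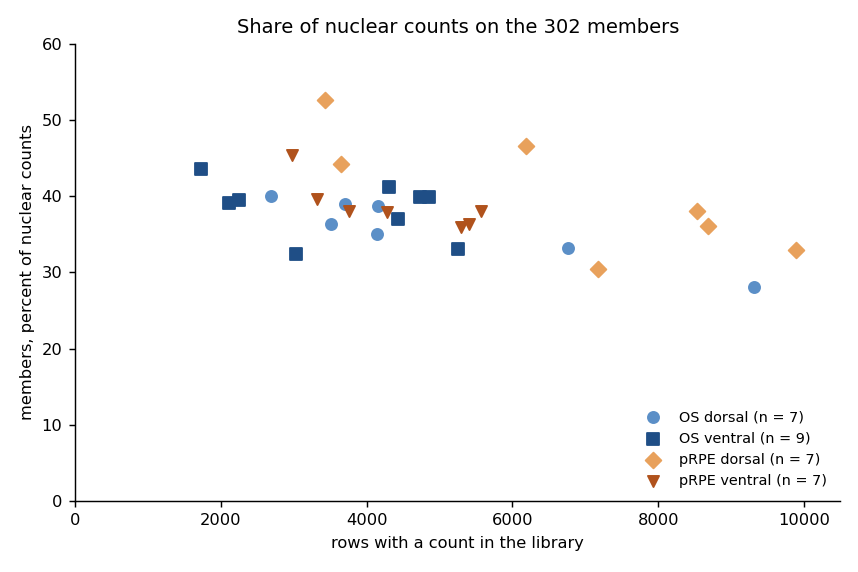
Percent of nuclear counts on the 302 members against the number of rows with a count, 1 point per library, with symbols for tissue and dorsal-ventral side. The share lies between 28.1% and 52.7% and is lowest in the dorsal OS library with the second most rows.

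Much of the members' counts lay on few rows. The 12 members with the highest median CPM were Mmgt2, Ltbp3, Col19a1, Mrpl38, Sub1, Ndufa4, Dhdh, Cyth2, Fam221b, Or52b6-ps1, Ubxn8 and Klf16. Together the 12 most counted held a median of 44.8% of the members' counts in dorsal libraries (40.8% to 52.8%, n = 14) and 40.9% in ventral libraries (36.9% to 46.3%, n = 16). Mmgt2, a membrane protein of the Golgi and early endosomes, was the highest, with 8342 to 77111 CPM and a median of 20550. Ltbp3, which binds latent TGF-beta in the extracellular matrix, followed with 3009 to 40077 CPM and a median of 19622. Col19a1, a collagen of basement membranes, had a median of 7294 CPM, and Mrpl38, a protein of the mitochondrial ribosome, 6314.

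Exon length changed this order. Per kilobase of merged exon, the level of Mmgt2 had a median of 4196 CPM, that of Ndufa4 3895, that of Mrpl38 2476 and that of Ltbp3 2164. Gm12918, which is annotated as a pseudogene, had the highest level per kilobase, 4522 CPM, and Rpl27-ps3 had 3285. Over the 276 members with an annotated length the median was 41.7 CPM per kilobase (0.0691 to 4522).

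Rows named for genes known chiefly from other tissues were among the members. There were 16 of these, chosen after their names were seen, with median levels of 2.28 to 3611 CPM. Other rows were not sorted in this way, so whether such names are more frequent among the members was not tested. Or52b6-ps1, an olfactory receptor pseudogene, had a median of 3611 CPM. Its lowest library, OS dorsal proximal replicate 1, had 24.5 CPM, and its highest, OS ventral distal replicate 3, had 16003. Esp16, an exocrine gland-secreted peptide, had a median of 2834 CPM (896 to 16625). Or6c8, an olfactory receptor, had a median of 1367 CPM and Ryr1, the calcium release channel of skeletal muscle, 494.

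Most neighbouring members were weakly correlated. In 18 pairs of members under 100 kb apart the correlation of log2 CPM over the 30 libraries had a median of 0.16 (-0.13 to 0.91), against a median of 0.07 over all pairs of members (5th to 95th percentile -0.35 to 0.51). The highest, 0.91, belonged to Gm13832 and A930005G22Rik, which overlap on opposite strands of chromosome 5.

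A count in every library was not always a high count. The lowest count was 1 in 44 members, 2 in 21 and 3 in 22, at least 10 in 183 and at least 100 in 109. Of the 87 members with a lowest count of at most 3, 66 reached 100 or more in another library and 28 reached 1000 or more. Just outside the rule, 165 nuclear rows were counted in 29 of 30 libraries. Among those with the highest means were Gpr152 (mean count 8066), G3bp1 (6277), Ywhaz (4092) and Usp15 (3972), each at 0 in 1 OS library. G3bp1 (a stress granule protein) and Ywhaz (a 14-3-3 protein) are widely expressed genes. For comparison, 97 of the 302 members had a median count of at least 1000 and 42 had one under 20. Just inside the rule, Mcm7 had 1 count in OS ventral distal replicate 1 and a median of 1080 counts over all libraries.

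The spread between libraries differed widely among the members. The SD of log2 CPM over the 30 libraries had a median of 0.95 (0.39 to 3.44), and within a region, over libraries of the same label, 0.94 (0.36 to 3.37). The highest library exceeded the lowest by a median of 22.9-fold. The 5 steadiest members were Tlx3 (a homeobox factor; SD 0.39, 711 to 3055 CPM), Usp10 (a deubiquitinase; SD 0.40, 938 to 2624 CPM), Gm11878 (an annotated pseudogene; SD 0.41), Gtf2h5 (a subunit of the transcription factor TFIIH; SD 0.44) and Tmem63a (an ion channel; SD 0.44). The 5 most variable were Arntl (the clock factor Bmal1; SD 3.44, 0.297 to 638 CPM), Neat1 (SD 3.16), Slc25a16 (a mitochondrial carrier; SD 3.02), Fbxw2 (an F-box protein of a ubiquitin ligase; SD 2.95) and Rrm2b (a ribonucleotide reductase subunit; SD 2.89). Slc25a16 fell into separate ranges, with 6 libraries at or below 2.88 CPM and 24 at 56.7 CPM or more. Among the housekeeping members, Rpl30 ran from 0.376 to 1007 CPM and Myl6 from 0.895 to 276, whereas Ndufa4 (2344 to 10286 CPM) and Cox6c (504 to 2994) varied less.

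**Figure D3:**
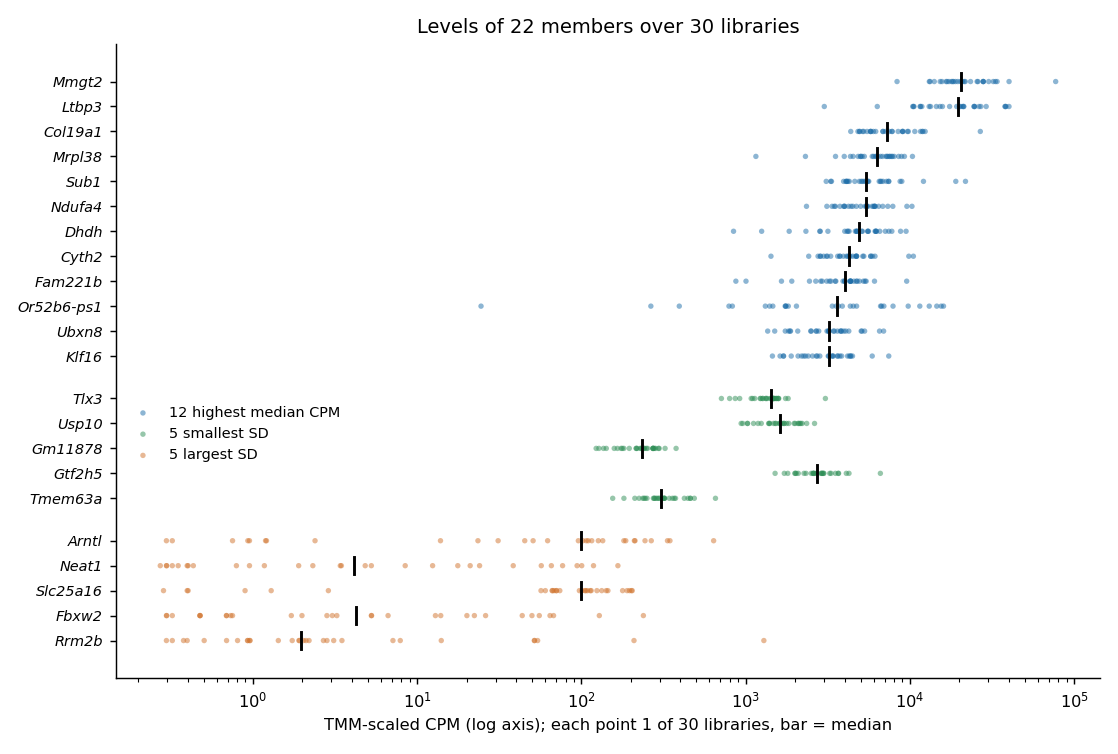
TMM-scaled CPM on a log axis of the 12 members with the highest median and of the 5 with the smallest and the 5 with the largest SD of log2 CPM, with 1 point per library (n = 30) and a bar at the median. Mmgt2 and Ltbp3 have medians of 20550 and 19622 CPM, Usp10 stays within 938 to 2624 CPM, and Slc25a16 shows a gap between 2.88 and 56.7 CPM.

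Some libraries stood at the extreme for many members. OS ventral distal replicate 2, which had the fewest detected rows (1730), was the lowest of the 30 libraries for 54 members and the highest for 30. OS ventral middle replicate 3 was the lowest for 44 and the highest for 28, and pRPE dorsal proximal replicate 1, with the largest share of counts on the members (52.7%), was the highest for 49.

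Regional differences were tested on the whole table with edgeR's quasi-likelihood test, in a model with batch, tissue, dorsal-ventral side and distal, middle or proximal position. A row was called at a Benjamini-Hochberg adjusted p under 0.05 over the 8337 rows and a log2 fold change beyond 0.58. Libraries of the same embryo entered as separate samples, so the p-values cannot be read as tests over embryos. The rule selects rows without zeros, and the members had smaller errors than other rows. Their median standard error of the log2 fold change was 0.64 for pRPE against OS (1.71 over all rows tested), 0.57 for dorsal against ventral (1.53) and 0.63 for distal against proximal (1.65).

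Between pRPE and OS no member was called, where 0.036% of all rows were (3 of 8337). At an unadjusted p under 0.05 there were 12 members (3.97%), 9 higher and 3 lower in the pRPE, against 20.6% of all rows. DESeq2 called 10 members (3.31%), 2 higher and 8 lower, against 14.9% of all rows, and limma voom called none, against 2.03% of all rows (169 of 8337). The fitted 95% interval of the difference stayed within 2-fold either way in 27 members and within 4-fold in 188. The median log2 fold change was 0.28 over the members and 0.80 over all rows. Scaling on the members alone lowered these medians to -0.05 and 0.59, and a members' median near 0 follows from that scaling. DESeq2, whose size factors rest on the 327 rows without a zero, most of them members, gave -0.04 and 0.62. The direction of the members' median thus depended on the scale, and each value below is relative to it. With the number of detected rows as a covariate the medians were 0.28 over the members and -0.03 over all rows.

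Vim, which builds the intermediate filaments of neuroepithelial and mesenchymal cells, had lower medians in the pRPE, without passing the test. Its level was 1020 to 3135 CPM in the dorsal OS (median 2042, n = 7), 292 to 2695 in the ventral OS (median 2068, n = 9), 703 to 1189 in the dorsal pRPE (median 940, n = 7) and 272 to 1418 in the ventral pRPE (median 785, n = 7). All 14 pRPE libraries lay below the OS median, and 11 of 16 OS libraries lay above the highest pRPE library, though the ranges overlapped. In the fit pRPE against OS gave a log2 fold change of -0.999 (SE 0.32, 95% interval -1.65 to -0.34), with an edgeR adjusted p of 0.0693 that missed the threshold. It was -0.96 within batch A and -1.01 within batch B, and DESeq2 called it (-1.29, adjusted p 5.74e-05). The summed level of the 15 mesenchyme markers, 7 of which had no count, ran from 0 to 255 CPM in the dorsal OS, 0.365 to 1123 in the ventral OS, 1.04 to 1035 in the dorsal pRPE and 0 to 417 in the ventral pRPE, and its part in the Vim difference was not tested. In captured areas fewer cells of a type and less RNA per cell cannot be told apart.

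Tbx1, a T-box factor of head mesoderm and pharynx, showed the same side. It had 23.4 to 422 CPM in the dorsal OS (median 71.0), 63.02 to 370 in the ventral OS (median 196), 0.475 to 86.5 in the dorsal pRPE (median 29.8) and 31.5 to 143 in the ventral pRPE (median 47.0). All 14 pRPE libraries were below the OS median and 9 OS libraries were above the highest pRPE library. The fitted log2 fold change was -2.34 (SE 0.69), with an edgeR adjusted p of 0.0669 and -2.67 by DESeq2 (adjusted p 3.71e-07). The lowest pRPE value, in dorsal distal replicate 2, was a single count.

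Naa40, an acetyltransferase of histone N-termini, was the member with the smallest p in this comparison. It had 1781 to 3861 CPM in the dorsal OS (median 2573), 589 to 3484 in the ventral OS (median 2160), 2447 to 6617 in the dorsal pRPE (median 4868) and 2059 to 5142 in the ventral pRPE (median 4443). Of 14 pRPE libraries 13 lay above the OS median and 10 above the highest OS library. The log2 fold change was 0.99 (SE 0.27), with an edgeR adjusted p of 0.0669, and it was 1.57 within batch A and 0.67 within batch B, while DESeq2 called it (0.72, adjusted p 0.0252). Ubxn8, a protein of the endoplasmic reticulum in protein degradation, had 13 of 14 pRPE libraries above the OS median and a log2 fold change of 0.72 (SE 0.25, edgeR adjusted p 0.0810), which was 0.40 with factors over the members and 0.42 by DESeq2 (adjusted p 0.231). Stim1, the calcium sensor of the endoplasmic reticulum, was at 1.19 to 42.0 CPM in the pRPE and 2.03 to 304 in the OS, with a log2 fold change of -2.88 (SE 1.00, edgeR adjusted p 0.0787), which was -1.88 with an adjusted p of 0.426 without OS ventral proximal replicate 1 and which DESeq2 called (-3.34, adjusted p 6.5e-05). Stim1 had a median of 40.5 counts over the 30 libraries and the ranges of both tissues overlapped.

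Between dorsal and ventral libraries 2 members were called, Fbxw2 and Ltbp3 (0.662% of the members), both higher dorsally, where 5.76% of all rows were called (461 of 480 higher dorsally). At an unadjusted p under 0.05 there were 6 members (1.99%), 5 higher and 1 lower, against 21.7% of all rows. DESeq2 called 10 members, 5 in each direction, against 16.9% of all rows; Fbxw2 was among them and Ltbp3 was not. Limma voom called no member, against 0.624% of all rows. The median log2 fold change was 0.05 over the members and 0.94 over all rows, and the interval stayed within 2-fold in 66 members and within 4-fold in 239. Dorsal libraries held more detected rows than ventral ones, with a median of 5173 (2693 to 9886, n = 14) against 4299 (1730 to 5566, n = 16). With the number of detected rows as a covariate, the calls over all rows fell from 480 to 5 and neither member was called, while their log2 fold changes were 3.79 for Fbxw2 (edgeR adjusted p 0.0834) and 0.78 for Ltbp3 (0.0957). The median log2 fold change was then 0.03 over the members and -0.02 over all rows.

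Ltbp3 was counted at a high level everywhere. It had 14478 to 40077 CPM in the dorsal OS (median 24558), 11537 to 26331 in the ventral OS (median 17429), 10507 to 38078 in the dorsal pRPE (median 24591) and 3009 to 21247 in the ventral pRPE (median 10573). The groups overlapped, with 11 of 14 dorsal libraries above the ventral median and 6 above the highest ventral library. The log2 fold change was 0.80 (SE 0.21, 95% interval 0.38 to 1.22, edgeR adjusted p 0.0295), and it was 0.76 within batch A and 1.01 within batch B, where neither passed. The Ltbp3 call was lost without OS dorsal distal replicate 3 (0.72, adjusted p 0.0514) and with the library numbers as a block (0.79, adjusted p 0.0520). The annotated Ltbp3 gene (GRCm38 chromosome 19, 5740904 to 5758532, plus strand) overlaps a gene on the opposite strand.

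Fbxw2 went from near 0 ventrally to a low level dorsally. It had 1 to 312 counts in the dorsal OS (median 126), 1 to 17 in the ventral OS (median 2), 1 to 472 in the dorsal pRPE (median 69) and 1 to 33 in the ventral pRPE (median 5), or in CPM medians of 49.96, 0.746, 26.1 and 1.72. Of 14 dorsal libraries 11 exceeded the highest ventral library, while OS dorsal distal replicate 3 and pRPE dorsal distal replicate 2 had a single count each. Dorsal against ventral, the log2 fold change was 4.19 (SE 1.03, 95% interval 2.09 to 6.29, edgeR adjusted p 0.0277), with 3.65 within batch A and 4.47 within batch B. Without OS dorsal middle replicate 2 it was 3.86 with an adjusted p of 0.0517. The row lies on the minus strand of GRCm38 chromosome 2 (34804514 to 34826311) and overlaps no other annotated gene.

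The Esp16 difference had opposite signs in the batches, a contrast that was not tested. Its level was 1440 to 13740 CPM in the dorsal OS (median 4505), 1090 to 7524 in the ventral OS (median 2156), 896 to 16625 in the dorsal pRPE (median 11091) and 1627 to 4979 in the ventral pRPE (median 2501). The log2 fold change was 1.27 (SE 0.42), with an edgeR adjusted p of 0.0588 that missed the threshold. Esp16 passed it by DESeq2 (1.17, adjusted p 0.0368), in the fit without batch (1.37, adjusted p 0.0229) and without any 1 of 5 libraries, which were OS dorsal proximal replicate 1, OS ventral middle replicate 1, pRPE dorsal distal replicate 1, OS dorsal distal replicate 1 and OS dorsal middle replicate 1 (adjusted p 0.0281 to 0.0476). Within batch B it was 2.47 (adjusted p 0.000165) and within batch A -0.54 (unadjusted p 0.322), so the difference did not hold in both batches. Kcnq1ot1, a noncoding RNA antisense to Kcnq1, may share reads with its partner, which was not examined. It had a log2 fold change of 2.49 (SE 0.94, edgeR adjusted p 0.0935) on a median of 19 counts. For Kcnq1ot1 it was 1.62 (adjusted p 0.331) without pRPE dorsal proximal replicate 1 and 1.91 (adjusted p 0.247) without OS dorsal distal replicate 3, and DESeq2 called it (2.41, adjusted p 0.000407). Gm37969 was the member on the ventral side. It had 0.549 to 7.68 CPM in the dorsal OS, 1.43 to 24.2 in the ventral OS, 0.697 to 7.07 in the dorsal pRPE and 5.74 to 47.9 in the ventral pRPE. All 14 dorsal libraries lay below the ventral median. The log2 fold change was -2.25 (SE 1.03, edgeR adjusted p 0.188), and for Gm37969 it was -2.88 (adjusted p 0.0961) without OS dorsal middle replicate 2 and -2.33 by DESeq2, which called it (adjusted p 0.00105). Within batch A that of Gm37969 was -1.33 and within batch B -3.48.

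**Figure D4:**
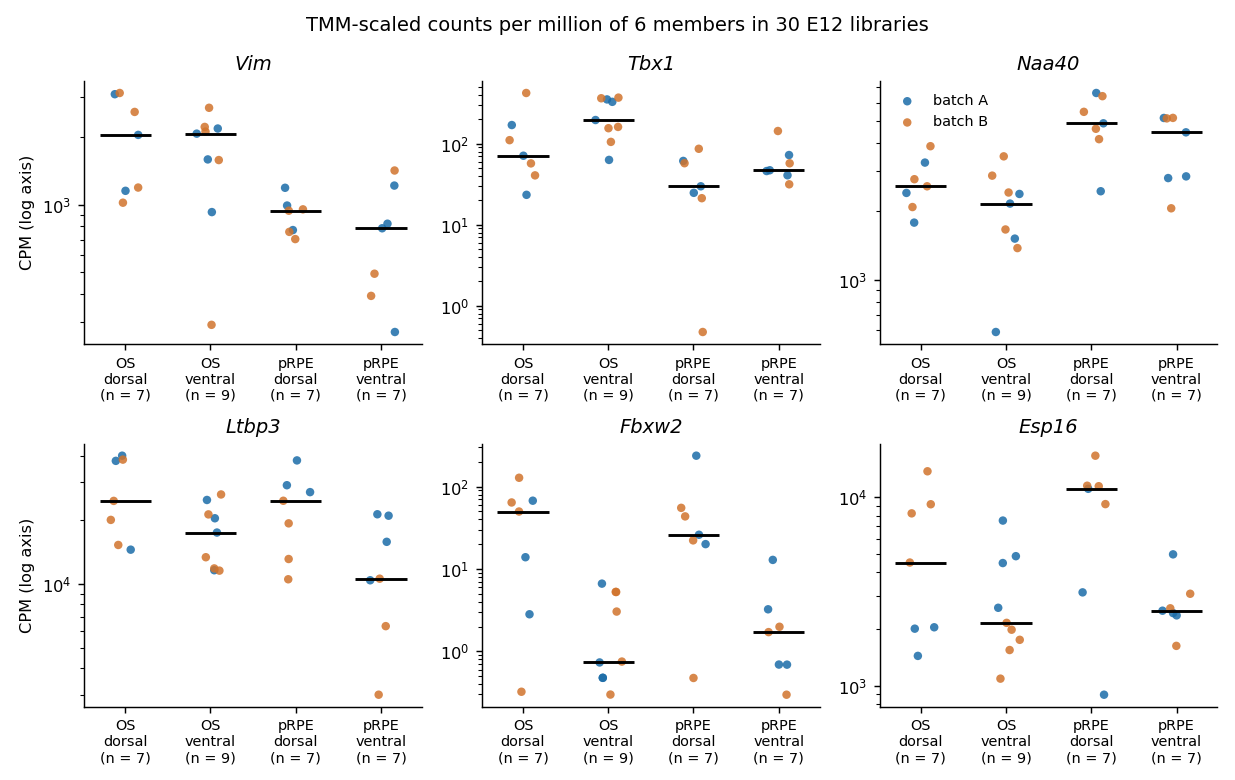
TMM-scaled CPM on log axes of 6 members in the 30 libraries by tissue and dorsal-ventral side, with points coloured by batch and bars at the group medians. The medians of Vim and Tbx1 lie lower and those of Naa40 higher in the pRPE, Ltbp3 and Fbxw2 lie higher in dorsal libraries with overlap, and the highest Esp16 values lie in dorsal libraries, most of them of batch B.

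Between distal and proximal libraries no member was called and the share over all rows was 0%. At an unadjusted p under 0.05 there were 2 members (0.662%), both lower distally, against 10.8% of all rows. DESeq2 called the same 2, Vim and Sowaha, against 7.34% of all rows, and limma voom called no member and 0% of all rows. The median log2 fold change was 0.02 over the members and -0.06 over all rows, and the interval stayed within 2-fold in 55 members and within 4-fold in 220. Vim had 272 to 2042 CPM distally (median 823, n = 13), 1589 to 3096 in the middle OS (median 2164, n = 6) and 703 to 3135 proximally (median 1189, n = 11). All groups overlapped, and the log2 fold change of distal against proximal was -0.83 (SE 0.32, edgeR adjusted p 0.257). Sowaha, of little known function, was at a median of 7 counts, with a log2 fold change of -2.27 (SE 1.05, edgeR adjusted p 0.407). That of Sowaha was -1.06 within batch A and -3.08 within batch B. Nat8f2 (1.12), Snd1, a nuclease of RNA processing (-1.18), and Zbtb4, a zinc finger factor that binds methylated DNA (0.74), followed, with edgeR adjusted p from 0.517 to 0.643. Without pRPE dorsal distal replicate 1 the values were 0.72 for Nat8f2 and 0.29 for Zbtb4, and without OS ventral distal replicate 2 that of Zbtb4 was 0.47. Zbtb4 was at 0.67 within batch A and 0.17 within batch B.

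**Figure D5:**
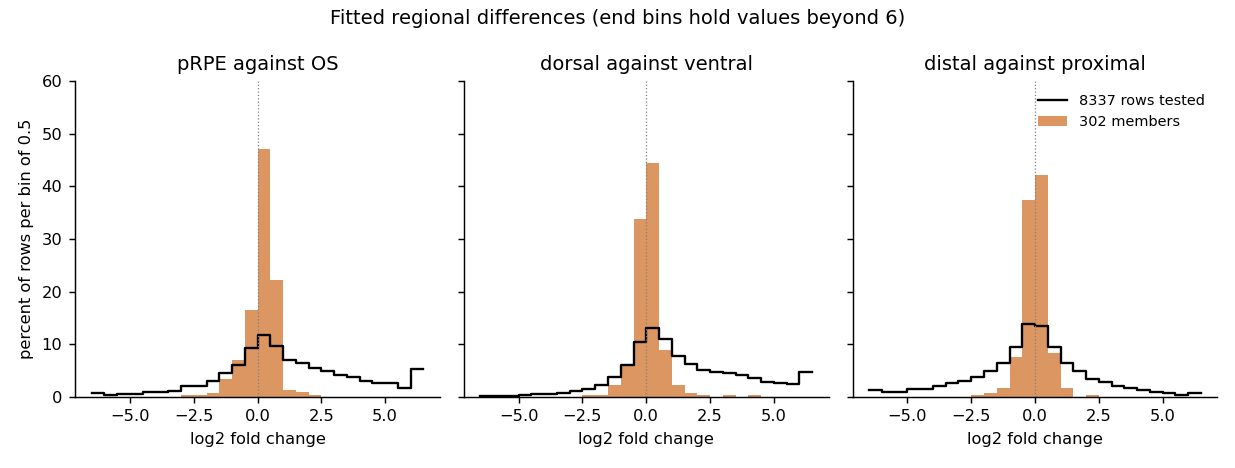
Distribution of the fitted log2 fold changes in bins of 0.5 for the 302 members (bars) and all 8337 rows tested (line), with values beyond 6 in the end bins. The members' medians are 0.28, 0.05 and 0.02 and those of all rows 0.80, 0.94 and -0.06. The bars are narrower than the line in each panel, and the members were chosen as rows without zeros. With the number of detected rows as a covariate, not shown, the medians of all rows were -0.03 for pRPE against OS and -0.02 for dorsal against ventral.

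Whether the dorsal-ventral difference itself differed between pRPE and OS was tested with an interaction term. No member and 0% of all rows were called. At an unadjusted p under 0.05 there were 4 members (1.32%), 3 with a higher and 1 with a lower signed log2 difference of dorsal over ventral in the pRPE than in the OS, against 13.8% of all rows. DESeq2 called 3 members (Fam53a, Gm37969 and Tlcd3b), against 18.8% of all rows, and limma voom called none, against 0.012% of all rows. The standard error of the interaction had a median of 1.16 over the members, so that its interval stayed within 4-fold in only 59. Tlcd3b, a ceramide synthase, had the smallest p (log2 difference 4.49, SE 1.95, edgeR adjusted p 0.294), followed by Cox6c (1.37, SE 0.63, adjusted p 0.324), Filip1l (3.55), Gm10505 (-2.27) and Rps20 (1.04). For Filip1l 1 library decided the size: pRPE dorsal proximal replicate 1 had 11732 CPM, and without it the log2 difference was 1.08. Without the same library that of Tlcd3b was 3.19 (edgeR adjusted p 0.597), and without OS ventral distal replicate 3 that of Tlcd3b was 3.44 and that of Gm10505 -2.98. Limma voom gave 2.16 for Tlcd3b, 0.80 for Filip1l and -3.96 for Gm10505, with 1.20 for Cox6c and 1.01 for Rps20. The median counts of Tlcd3b were 8 in the dorsal and 41 in the ventral OS, and 34 and 42 in the pRPE. Those of Gm10505 were 1211 and 611 in the OS, and 1077 and 4176 in the pRPE.

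Roles in the cell were assigned by hand to 144 members after their names were seen, so the values are descriptions with no test. The 30 members of transcription and chromatin had median log2 fold changes of 0.31 (pRPE against OS), 0.20 (dorsal against ventral) and 0.07 (distal against proximal), with 4, 0 and 0 at an unadjusted p under 0.05, where the shares over all rows were 20.6%, 21.7% and 10.8%. The 22 of protein folding, turnover and secretion had 0.23, 0.07 and -0.03, with 3, 1 and 0. The 22 of cytoskeleton, adhesion and matrix had 0.33, 0.16 and -0.02, with 1 each. Translation (13 members) had 0.40, 0.02 and 0.09 and none at that level, and mitochondria (12 members) had 0.23, 0.19 and 0.12, with 1, 1 and 0. Signalling (12 members) had 0.12, 0.05 and -0.03, with 1, 0 and 0. DNA replication and repair (10 members) had 0.35, 0.30 and 0.12, with 1, 0 and 0, and RNA processing (7 members) had 0.03, 0.13 and -0.09 and none at that level. The 16 named for other tissues had 0.23, 0.09 and 0.03, with 0, 1 and 0. The members' median was 0.28 for pRPE against OS and 0.20 with TMMwsp. It fell below 0 with DESeq2 and with factors over the members, which both scale on rows without a zero.

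Between the batches, 1 member was called, Col19a1, lower in batch B (0.12% of all rows were called, 10 of 8337). Its median was 9711 CPM in batch A and 5752 in batch B, with a log2 fold change of -0.90 (SE 0.17, edgeR adjusted p 0.00872). At an unadjusted p under 0.05 there were 6 members (1.99%), against 12.5% of all rows.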

How the data were processed

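Estimated (expected) counts per gene symbol from 30 Control libraries of E12 embryos were used. The authors deposited these expected counts without normalization; the submitters' processing notes name FastQC, HISAT2, StringTie and the build GRCm38, and per the methods both mapping and quantification used default settings, while how StringTie output became counts, the strand and the annotation release are not given in the sources used here. In 63 rows 270 values were not whole and were rounded, none of them in the members. Rows with more than 10 counts in at least 3 libraries (8337) entered a fit in edgeR 4.0.16 (R 4.3.3; TMM factors, quasi-likelihood test, batch as covariate), with Benjamini-Hochberg adjustment over all rows tested. A call required a log2 fold change beyond 0.58 with an adjusted p under 0.05. CPM were scaled with the TMM factors. Gene types and lengths came from GENCODE M21 by symbol.

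The members and gene lists were chosen with earlier results of these data known, and roles after the names were seen. Genes named were the 12 highest by median CPM, in each comparison the called members and otherwise the 5 with the smallest p, the 5 smallest and 5 largest SD, members of the gene lists, and rows beside the threshold; Rpl30 and Rps20 belong to the list of ribosomal protein genes and other members named as examples were chosen after their values were seen. Groups came from the tissue labels. Alternatives were DESeq2 1.42.0, limma 3.58.1 voom, other scalings, filters, covariates and member rules, single batches, leaving out OS middle libraries or each library, and the library-number block; the filter on rows counted in at least 15 libraries was added after the data were seen. The block, a run of library numbers within a batch that the labels do not tie to an embryo, was checked. Members' deviations in libraries of the same block correlated at a mean of 0.047 over 103 pairs (-0.21 to 0.43). The mean was -0.034 over 98 pairs from the other block of the same batch and -0.0071 over 201 pairs from different batches. The block was therefore kept as an alternative. With it, 97 rows were called for dorsal against ventral in place of 480. Figures used matplotlib. E14 libraries were not analysed here.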

Additional observations from a re-analysis of the deposited data

Results flagged for a closer look

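Among 120 sets of libraries, formed by 29 named members and the share of nuclear counts on all members in the 4 groups of tissue and dorsal-ventral side, 14 had a library far from the others of its group. Among independent sets of normally distributed values about 1 in 20 would be marked by chance. These sets share libraries and hold members picked by level or p, so that rate need not apply to them. Some libraries recurred. OS ventral distal replicate 2, the library with the fewest detected rows, had the lowest ventral OS values of Vim (292.5 CPM, others 927 to 2695), Filip1l (0.895 CPM, others 58.02 to 541) and Gm10505 (0.597 CPM, others 69.1 to 1051), and the highest of Zbtb4 (4552 CPM, others 551 to 1312). pRPE dorsal distal replicate 2 had a single count, 0.475 CPM, of both Tbx1 (others of the dorsal pRPE 21.2 to 86.5) and Fbxw2 (others 20.1 to 238). pRPE ventral proximal replicate 1 was the lowest of the ventral pRPE for Fam221b (871 CPM, others 2670 to 6082) and Klf16 (1699 CPM, others 3407 to 4367).

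The remaining values came from different libraries. Or52b6-ps1 was at 24.5 CPM in OS dorsal proximal replicate 1 (others of the dorsal OS 1757 to 15490), and Filip1l at 6.94 CPM in OS dorsal distal replicate 1 (others 78.8 to 168). In the ventral pRPE, Gm37969 was at 5.74 CPM in distal replicate 2 (others 20.7 to 47.9), Snd1 at 76.9 CPM in distal replicate 1 (others 310 to 709) and Cox6c at 632 CPM in proximal replicate 2 (others 907 to 1018). The share of nuclear counts on the members was 45.5% in pRPE ventral distal replicate 3 and 35.9% to 39.7% in the other ventral pRPE libraries. Without OS ventral distal replicate 2 the tissue difference of Vim was -1.12 on the log2 scale, and without pRPE dorsal distal replicate 2 the dorsal-ventral difference of Fbxw2 was 4.29.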

How the results depend on the processing

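The number of members called between pRPE and OS, distal and proximal, and in the interaction (0 each) changed, among the alternatives run for each, only with DESeq2, to 10, 2 and 3. The interaction was not run with filterByExpr, no filter, no mitochondrial rows, 1 level per region, single batches, no OS middle libraries or other member rules. Of dorsal against ventral, where 2 members were called, DESeq2 gave 10. Without batch as a covariate it was 3, Esp16 being added. The count was 1 with TMMwsp, factors over the members and the library numbers as a replicate block (Fbxw2 in each), with the rule of at least 5 counts in every library (Ltbp3) and in batch B alone (Esp16, with Fbxw2 and Ltbp3 at adjusted p 0.108 and 0.101). The count was 0 with limma voom, no filter, detected rows as a covariate, 1 level per region, batch A alone, no OS middle libraries, and rows counted in at least 15 libraries (added after seeing the data). Leaving out each library in turn gave 1 to 3 members for dorsal against ventral (Esp16 being the third in 5 fits) and 0 for each other comparison. The median log2 fold change over the members for pRPE against OS moved from 0.28 to -0.043 with DESeq2 and -0.0461 with factors over the members, and ran from 0.24 to 0.31 without single libraries. In single members, Esp16 turned to -0.54 for dorsal against ventral within batch A (adjusted p 1). Fbxw2 kept its direction in 45 of 45 alternatives (3.49 to 4.59) with an adjusted p from 1.94e-07 to 0.845, and Ltbp3 in 45 of 45 (0.64 to 1.01) with 0.024 to 0.845. For the median of pRPE against OS, factors over the members set it near 0 by construction, and DESeq2 scales on rows without a zero, most of them members. The cause of the other changes was not tested. Of the members, 87 had a library with 3 counts or fewer, where a fold change rests on few reads, and OS ventral distal replicate 2 and OS ventral middle replicate 3 held the lowest value for 54 and 44 members.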
